A study of Mus musculus with 8 samples.

Results

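In NMuMG cells, 50 genes had less RNA with BRM014 than with DMSO after 6 h and more RNA with BRM014 than with DMSO after 30 h. NMuMG is an epithelial line from normal mouse mammary gland. BRM014 inhibits the ATPase activity of SMARCA4 and SMARCA2, the motors of the SWI/SNF chromatin remodellers. The members were chosen by these same values. Counts were divided by the library total and multiplied by 1e6 (CPM) and averaged over the libraries of a group. A member had a mean of at least 2 CPM over the 8 libraries, a BRM014/DMSO ratio of at most 0.75 at 6 h and a value at least 33% higher with BRM014 at 30 h. Genes whose symbols start with Cldn, Krt, Itg, Lam, Col4, Mmp, Ccl, Cxcl, Il1 or Slc were left out by the rule. The 50 members came from 10529 genes of at least 2 CPM, among 21240 genes in the table.

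The groups were wild-type NMuMG cells with BRM014 for 30 h, with DMSO for 30 h, with BRM014 for 6 h and with DMSO for 6 h, with 2 libraries in each. DMSO is the solvent, so it serves as the control at each time. All cells were grown in medium with serum and insulin. No source used here states how much BRM014 was added. The labels speak of biological replicates without naming separate cultures, so p-values measure only the spread between these libraries, which may be technical. They held 17859693 to 29955366 counts each, and Pearson's r between the replicates of a group was 0.9904 to 0.9939 over genes (log2 CPM). The epithelial markers Krt8, Krt18 and Cdh1 reached at most 2990, 4561 and 647 CPM in any library, while the epithelial marker Epcam was at 0 counts in all 8 libraries. The 4 epithelial markers summed to 7096 to 8198 CPM with BRM014 at 30 h, against 4367 to 4596 CPM with DMSO. At 6 h their sum was 5294 to 5756 CPM with BRM014, against 4997 to 5282 CPM with DMSO. Marker lists of fibroblasts, immune cells, endothelium and adipocytes each summed to at most 7.76 CPM in any library, and the immune sum, mostly Cd68, was 2.20 to 2.58 CPM with BRM014 at 30 h, against 3.77 to 6.48 CPM with DMSO. The 4 mammary basal markers, mostly Krt14, summed to 0.0334 to 0.112 CPM with BRM014 at 30 h, against 3.55 to 8.52 CPM with DMSO, and to 0.986 to 2.27 CPM with BRM014 at 6 h, against 8.66 to 12.1 CPM with DMSO. The epithelial, basal, immune and fibroblast sums did not overlap between treatments at either time, though the epithelial sums at 6 h nearly met. The endothelial and adipocyte sums were at most 0.300 CPM. They overlapped between treatments at 6 h for endothelium and at 30 h for adipocytes. The part of these sums in the results was not tested.

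SWI/SNF complexes move and evict nucleosomes with energy from ATP, and so set how accessible enhancers and promoters are. A gene can depend on them directly, or through another gene whose product regulates it. In bulk RNA, fewer cells expressing a gene and less RNA per cell cannot be told apart.

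By the same ratios, 1210 genes were lower at 6 h and 1756 were higher at 30 h. Of all genes of at least 2 CPM, 858 were higher at both times, 790 were lower at both times, and 23 were higher at 6 h and lower at 30 h. The 6 h and 30 h ratios share no library. The opposite-sign quadrant held 53 genes before the symbol starts were left out. These counts follow from the rule and are given without a test.

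**Figure D1:**
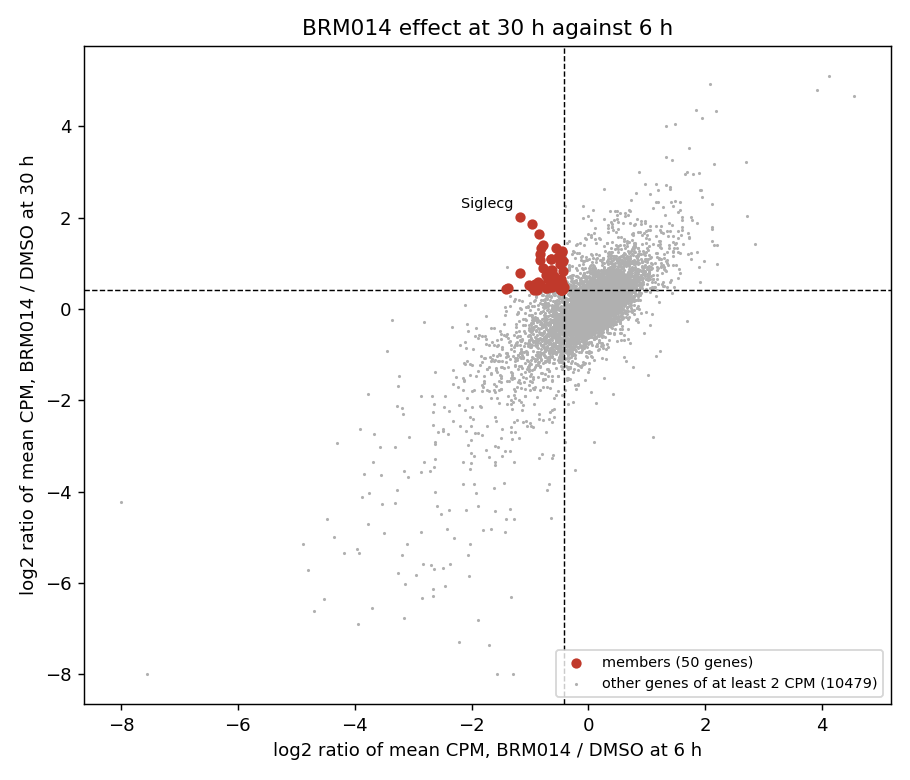
Each point is 1 gene of at least 2 CPM, with the log2 ratio of mean CPM, BRM014/DMSO, at 6 h on the x axis and at 30 h on the y axis. Dashed lines mark the thresholds of the rule, red points are the 50 members, the 3 grey points in the same quadrant are the genes left out by symbol, and log2 ratios beyond 8 in size are drawn at 8. More genes moved the same way at both times (858 higher, 790 lower) than in opposite ways, and Siglecg is the highest member.

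Promoter windows of 300 bases (250 before and 50 after a RefSeq start, build GRCm38.p6) were matched by Entrez ID for 37 of the 50 members, with 48 windows in all. The counts themselves were made on another build, mm9, so the windows were used for sequence only. The 250 bases before the start are shown for the 6 members with the largest difference between the 30 h and 6 h effects among those of at least 10 CPM whose window lies outside the RefSeq gene body. They are shown because the pattern was largest at them within that set, not among all well-counted members. Capitals mark the letters of the searched motifs, and only the Rnf39 and Klf9 stretches hold one.
Flnc (GRCm38.p6, chr6:29432903-29433152, plus strand): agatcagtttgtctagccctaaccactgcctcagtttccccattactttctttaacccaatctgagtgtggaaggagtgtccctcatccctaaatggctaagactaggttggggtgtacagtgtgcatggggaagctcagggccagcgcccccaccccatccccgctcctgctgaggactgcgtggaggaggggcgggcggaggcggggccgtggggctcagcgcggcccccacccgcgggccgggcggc
Nbeal2 (GRCm38.p6, chr9:110654162-110654411, minus strand): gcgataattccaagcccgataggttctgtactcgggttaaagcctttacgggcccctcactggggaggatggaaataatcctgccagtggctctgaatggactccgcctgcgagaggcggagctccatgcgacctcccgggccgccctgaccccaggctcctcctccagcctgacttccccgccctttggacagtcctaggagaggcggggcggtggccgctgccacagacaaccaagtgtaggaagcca
Cavin2 (GRCm38.p6, chr1:51288876-51289125, plus strand): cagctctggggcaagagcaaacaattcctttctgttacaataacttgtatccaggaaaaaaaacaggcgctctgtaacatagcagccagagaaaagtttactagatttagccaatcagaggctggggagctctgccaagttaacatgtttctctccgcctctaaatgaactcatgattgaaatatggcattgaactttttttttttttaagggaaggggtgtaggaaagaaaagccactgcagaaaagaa
Rnf39 (GRCm38.p6, chr17:36942801-36943050, plus strand): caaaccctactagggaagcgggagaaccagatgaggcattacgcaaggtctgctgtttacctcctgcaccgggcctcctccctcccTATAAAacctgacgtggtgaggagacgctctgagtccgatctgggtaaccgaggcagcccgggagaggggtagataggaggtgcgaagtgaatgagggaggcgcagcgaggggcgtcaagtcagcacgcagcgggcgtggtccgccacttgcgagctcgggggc
Klf9 (GRCm38.p6, chr19:23140976-23141225, plus strand): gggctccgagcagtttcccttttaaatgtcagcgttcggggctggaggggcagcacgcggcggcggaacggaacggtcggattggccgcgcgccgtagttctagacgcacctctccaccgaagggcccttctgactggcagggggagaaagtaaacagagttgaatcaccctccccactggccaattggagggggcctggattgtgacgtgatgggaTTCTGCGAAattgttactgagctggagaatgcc
Nipal1 (GRCm38.p6, chr5:72647546-72647795, plus strand): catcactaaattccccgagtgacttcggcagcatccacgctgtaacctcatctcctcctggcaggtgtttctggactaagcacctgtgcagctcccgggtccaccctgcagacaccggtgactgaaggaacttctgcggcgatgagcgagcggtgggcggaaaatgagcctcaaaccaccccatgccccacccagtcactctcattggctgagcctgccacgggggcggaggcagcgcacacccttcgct

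The capitals in Rnf39 are a TATA motif and those in Klf9 a STAT motif. The Klf9 stretch is rich in CpG (observed over expected 0.96 over its 300 bases), while that of Cavin2 is poor in it (0.29). Across the members, 26 of 48 windows (54.2%) had a CpG ratio of at least 0.6, against 74.0% of 10880 windows of all genes of at least 2 CPM and 35.8% of all 32851 promoter windows. For members of 2 to 10 CPM the share was 48% of 25 windows, against 56.8% of windows of all genes in that range. For members of 10 CPM and over it was 60.9% of 23 windows, against 76.6%. CpG-rich promoters are typical of broadly expressed genes. Several windows can belong to 1 gene, so these shares are a description with no test.

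Motifs were searched on both strands in all 300 bases. The AP-1 motif TGACTCA was in 2 of 48 member windows (4.17%, against 3.73% of windows of genes of at least 2 CPM and 5.20% of all promoters), those of Procr and Tnfaip3. The TEAD motif GGAATG was in 8 (16.7%, against 11.9% and 14.7% of the same sets), in Chst15, Cobl, Flnc, Itpripl2, Kcnn4 and Syt14. The Flnc match begins at the last base shown above and is 1 site that lies in both of its overlapping windows. The E-box CACGTG was in 4 (8.33%, against 10.3% and 7.15%) and the STAT motif TTCNNNGAA in 2 (4.17%, against 6.66% and 8.30%). The TATA motif TATAAA was in 5 (10.4%, against 6.79% and 13.6%) and the SRF CArG box in 1 (2.08%, against 1.24% and 1.63%). For AP-1, the E-box and TATA the members' share lay between those of the 2 sets. No motif was shared by more than 6 of the 37 genes. A match is only a match of letters.

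Among themselves, the members spanned mean levels of 2.06 to 505 CPM, with a median of 9.68. There were 8 members of at least 100 CPM, 16 of 10 to 100 CPM and 26 below 10 CPM, and CPM is not divided by transcript length, so levels are not compared between genes. The 30 h ratio ranged from 1.335 to 4.07 (median 1.56) and the 6 h ratio from 0.376 to 0.744 (median 0.641). The 30 h ratio was at least 2 for 15 members, and the 6 h ratio at most 0.5 for 5. For 41 members both BRM014 libraries lay above both DMSO libraries at 30 h and below both at 6 h. Among all genes of at least 2 CPM this was so for 2.67%, and since the rule used these libraries nothing is read from the contrast.

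The spread between libraries was taken from an edgeR quasi-likelihood fit of all 8 libraries, in which 11835 genes, including all 50 members, passed the filter on low counts. Values below written as log2 ± SE are log2 fold changes from this fit, which rescales libraries by TMM, while ratios and CPM use library totals. A gene is called here when its Benjamini-Hochberg adjusted p over all genes tested was below 0.05. For the members the calls only describe, because the rule chose them on the same comparisons. At 30 h 31 members were called higher with BRM014 (16.8% of all genes were), and at 6 h 32 were called lower (14.4% of all genes). Both calls fell on 24 members (0.439% of all genes). The difference between the 2 effects was called higher at 30 h for 39 members (3.89% of all genes). The median log2 fold change of the members was 0.61 at 30 h, against -0.0046 for all genes, and -0.73 at 6 h, against -0.01 for all genes.

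**Figure D2:**
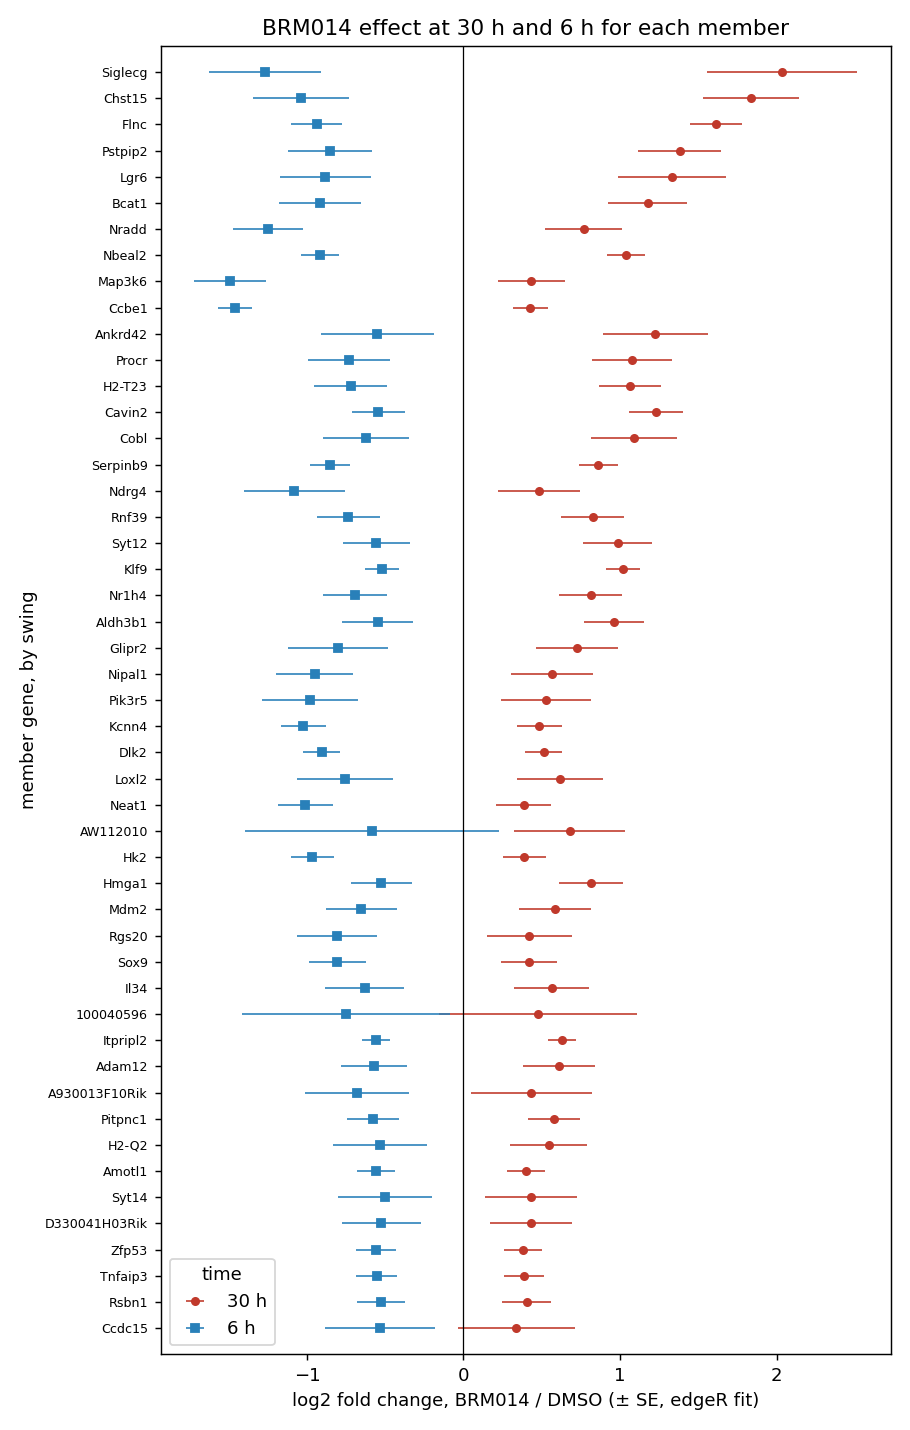
The log2 fold change of BRM014 over DMSO is on the x axis, with the SE of the edgeR fit as bars, at 30 h (red circles) and 6 h (blue squares), for 49 of the 50 members down the y axis in order of the difference between the times. All 30 h points lie to the right of 0 and all 6 h points to the left, as the rule requires, and the bars of AW112010, the unnamed gene 100040596 and Ccdc15 cross 0 at one or both times.

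The members are described by what their products do. These roles were set after the values were seen, and the rule favours the calls, so nothing is read from the counts by role. Among all genes 16.8% were called higher at 30 h, 14.4% lower at 6 h and 3.89% higher for the difference. Proteins that shape the cytoskeleton and the cell membrane from within were 5 of the 50: Flnc, Cavin2, Cobl, Pstpip2 and Amotl1. All 5 were called higher at 30 h, and 4 were called lower at 6 h. The exception was Cobl (-0.62 ± 0.27). Flnc (Entrez 68794) encodes filamin C, which crosslinks actin. At 30 h Flnc had 173 and 254 CPM with BRM014, against 75.3 and 61.7 CPM with DMSO. After 6 h Flnc had 131 and 119 CPM with BRM014, against 243 and 207 CPM with DMSO. The groups did not overlap at either time, and DMSO at 30 h was the lowest group. The fit gave Flnc 1.61 ± 0.17 at 30 h and -0.94 ± 0.16 at 6 h.

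Cavin2 encodes a coat protein of caveolae, the flask-shaped pits of the plasma membrane. Cavin2 had 157 and 185 CPM with BRM014 at 30 h, against 77.2 and 66.0 CPM with DMSO. At 6 h it had 138 and 98.1 CPM with BRM014, against 186 and 139 CPM with DMSO, and the higher BRM014 library lay just below the lower DMSO library. Pstpip2, an F-BAR protein that binds membranes and actin, had 4.76 and 4.57 CPM with BRM014 at 30 h, against 1.88 and 1.62 CPM with DMSO. Its 6 h values were 2.01 and 1.80 CPM with BRM014, against 2.85 and 3.66 CPM with DMSO, again without overlap. Cobl, an actin nucleator, and Amotl1, an angiomotin that binds YAP at junctions, changed by 1.09 ± 0.27 and 0.40 ± 0.12 at 30 h. Amotl1 changed by -0.56 ± 0.12 at 6 h, close to the threshold of the rule at both times (ratios 1.36 and 0.717).

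**Figure D3:**
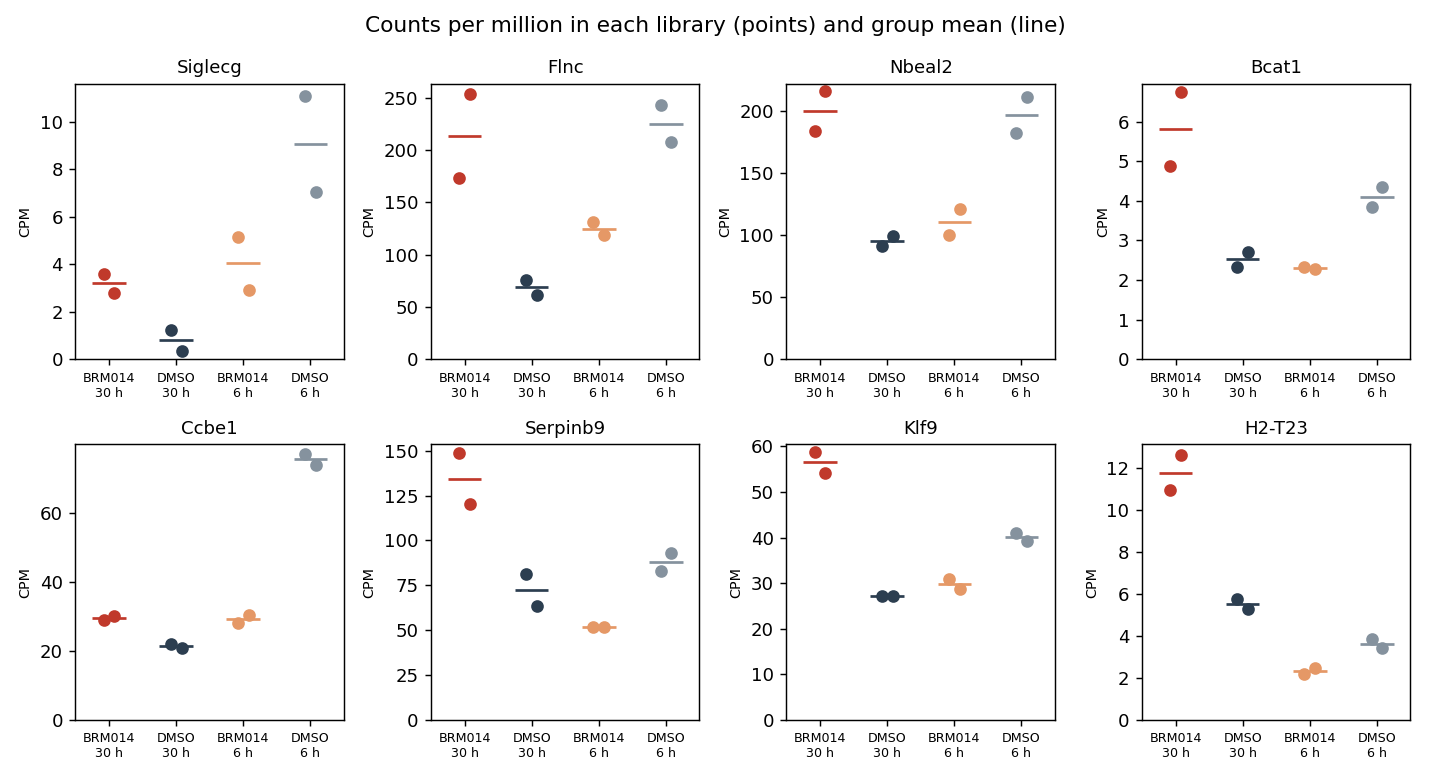
CPM (y axis, from 0) in each of the 8 libraries for Siglecg, Flnc, Nbeal2, Bcat1, Ccbe1, Serpinb9, Klf9 and H2-T23, with points for libraries and lines for the mean of 2 in each group. In all 8 genes the BRM014 points lie above the DMSO points at 30 h and below them at 6 h, and the genes differ in which of the 4 groups stands apart.

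Secreted proteins, matrix enzymes and cell surface receptors were the largest group, with 10 members. Of these 7 were called higher at 30 h, 6 were called lower at 6 h and 8 were called for the difference. Ccbe1 encodes a secreted factor that promotes processing of VEGF-C during lymphatic growth. Ccbe1 (Entrez 320924) had 28.8 and 30.1 CPM with BRM014 at 30 h, against 21.9 and 21.0 CPM with DMSO. At 6 h the values were 27.9 and 30.3 CPM with BRM014, against 77.1 and 74.1 CPM with DMSO. The BRM014 libraries were alike at both times, and DMSO at 6 h stood far above every other group. Its 6 h effect of -1.46 ± 0.11 was among the largest of the members, while its 30 h effect was 0.43 ± 0.11.

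Siglecg, an inhibitory sialic-acid-binding lectin known from B cells, had the largest difference between the times (3.30 ± 0.60). Siglecg (Entrez 243958) had 3.58 and 2.80 CPM with BRM014 at 30 h, against 1.22 and 0.351 CPM with DMSO, which is 22 and 8 counts in the DMSO libraries. Its 6 h values were 5.17 and 2.91 CPM with BRM014, against 11.1 and 7.06 CPM with DMSO. The groups did not overlap, but the ratio of 4.07 at 30 h rests on those few DMSO counts. Lgr6, an R-spondin receptor that potentiates Wnt signalling, had 3.64 and 4.14 CPM with BRM014 at 30 h, against 2.05 and 1.05 CPM with DMSO. The 6 h values of Lgr6 were 3.46 and 5.27 CPM with BRM014, against 6.23 and 9.11 CPM with DMSO. Lgr6 thus shared the order of Siglecg, with DMSO highest at 6 h and lowest at 30 h.

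Procr, the endothelial protein C receptor and a marker of a mammary stem cell population, had 15.1 and 14.8 CPM with BRM014 at 30 h, against 9.30 and 4.69 CPM with DMSO. At 6 h Procr had 7.70 and 5.44 CPM with BRM014, against 9.98 and 10.5 CPM with DMSO. The groups did not overlap at either time, and BRM014 at 30 h was the highest. The 6 h value of -0.73 ± 0.26 was not called. Dlk2, a membrane protein related to the Notch ligands, changed by 0.51 ± 0.12 at 30 h and -0.90 ± 0.12 at 6 h.

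The other secreted and surface members were Nradd, Loxl2, Il34 and Adam12. Loxl2, a lysyl oxidase that crosslinks collagen, had 23.4 and 32.0 CPM with BRM014 at 30 h, against 14.4 and 21.0 CPM with DMSO. Its 6 h values overlapped, with 5.58 and 8.49 CPM with BRM014, against 7.65 and 15.1 CPM with DMSO. Neither effect of Loxl2 was called. Il34, a ligand of the CSF-1 receptor, had 0.56 ± 0.24 at 30 h and -0.63 ± 0.25 at 6 h, and Adam12, a metalloprotease of the ADAM family, 0.61 ± 0.23 and -0.57 ± 0.21. None of these 4 values was called.

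Nradd, a death-domain membrane protein, lies next to another member, Nbeal2. They were the 1 pair of members that are neighbours in the RefSeq gene order, and both lie on the minus strand. Nbeal2 (Entrez 235627), a BEACH-domain protein needed for platelet alpha granules, had 184 and 216 CPM with BRM014 at 30 h, against 91.4 and 98.9 CPM with DMSO. At 6 h Nbeal2 had 100.2 and 121 CPM with BRM014, against 182 and 211 CPM with DMSO. BRM014 at 30 h and DMSO at 6 h were thus alike, and so were the other two groups. Nradd had 3.30 and 3.51 CPM with BRM014 at 30 h, against 1.94 and 1.97 CPM with DMSO, and 2.89 and 3.09 CPM with BRM014 at 6 h, against 6.27 and 7.16 CPM with DMSO. Its count was 1.63% to 3.45% of that of Nbeal2, a share that was not constant across libraries. Whether reads running past the end of Nbeal2 add to Nradd was not tested.

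The nearest table genes on either side of the members gave 64 tested genes that were not members themselves. Of these, 19 (29.7%) were called higher at 30 h, beside 16.8% of all genes, and 9 (14.1%) were called lower at 6 h, beside 14.4% of all genes. Those called higher at 30 h included H2-Q1 and H2-Q6, beside H2-Q2, and Zfp51 and Zfp52, beside Zfp53. Whether reads are shared within these families was not tested. These shares carry no test.

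Channels, vesicle and other membrane proteins made up 7 members, Nbeal2 included, of which 5 were called higher at 30 h and 4 were called lower at 6 h. Kcnn4, the intermediate-conductance calcium-activated potassium channel, had 113 and 153 CPM with BRM014 at 30 h, against 103 and 83.9 CPM with DMSO. Kcnn4 at 6 h had 102 and 95.5 CPM with BRM014, against 200.2 and 178 CPM with DMSO. The gap at 30 h was small beside the spread of the BRM014 libraries (0.48 ± 0.14), while that at 6 h was wide (-1.02 ± 0.14). Itpripl2, a transmembrane protein, had the smallest SE of all members (0.09 at each time), with 209 and 203 CPM with BRM014 at 30 h, against 129.5 and 130.2 CPM with DMSO. Its 6 h values were 125 and 130.4 CPM with BRM014, against 167 and 187 CPM with DMSO. Nipal1, a magnesium transporter, was called lower at 6 h (-0.95 ± 0.25) and had no call at 30 h (0.56 ± 0.26). Syt12, of the synaptotagmin family that acts in vesicle traffic, was called higher at 30 h (0.98 ± 0.22) and had no call at 6 h (-0.56 ± 0.22). Its relative Syt14 was called at neither time (0.43 ± 0.29 at 30 h and -0.50 ± 0.30 at 6 h). Glipr2, a Golgi-associated protein, was called at 30 h (0.72 ± 0.26) and not at 6 h (-0.80 ± 0.32).

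Signalling and stress proteins were 8 members, of which 3 were called higher at 30 h and 7 were called lower at 6 h. Serpinb9 (Entrez 20723), the intracellular inhibitor of granzyme B, had 149 and 120.3 CPM with BRM014 at 30 h, against 81.2 and 63.3 CPM with DMSO. Serpinb9 at 6 h had 51.8 and 51.6 CPM with BRM014, against 83.1 and 93.0 CPM with DMSO. BRM014 was therefore the highest group at 30 h and the lowest at 6 h, with effects of near-equal size (0.86 ± 0.12 and -0.85 ± 0.13). Map3k6, a stress-activated MAP kinase kinase kinase, had the lowest 6 h ratio of all members (0.376). It had 3.05 and 2.87 CPM with BRM014 at 6 h, against 7.32 and 8.41 CPM with DMSO, and its 30 h effect of 0.43 ± 0.22 was not called.

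Mdm2, the ubiquitin ligase that restrains p53 and is itself a p53 target, had 466 and 301 CPM with BRM014 at 30 h, against 262 and 237 CPM with DMSO. At 6 h the Mdm2 groups overlapped, with 366 and 229 CPM with BRM014, against 524 and 356 CPM with DMSO. In each treatment at each time replicate 1 was above replicate 2, and neither effect of Mdm2 was called, although the difference between them was (1.23 ± 0.32). Tnfaip3 (A20), a feedback inhibitor of NF-kB, had 64.4 and 63.8 CPM with BRM014 at 30 h, against 44.5 and 51.1 CPM with DMSO. Its 6 h values were 50.3 CPM in both BRM014 libraries, against 78.3 and 60.8 CPM with DMSO. Pitpnc1, a phosphatidylinositol transfer protein, changed by 0.58 ± 0.17 at 30 h and -0.58 ± 0.17 at 6 h. Pik3r5, a regulatory subunit of PI3K gamma, the G-protein regulator Rgs20 and Ndrg4 were not called at 30 h (0.53 ± 0.29, 0.42 ± 0.27 and 0.48 ± 0.26) and were called lower at 6 h (-0.98 ± 0.31, -0.81 ± 0.26 and -1.08 ± 0.32).

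Transcription and chromatin factors were 6 members, all of them called for the difference between the times, as were 39 of the 50 members (3.89% of all genes). Klf9 (Entrez 16601), a Kruppel-like factor induced by glucocorticoids, had 58.8 and 54.2 CPM with BRM014 at 30 h, against 27.2 and 27.1 CPM with DMSO. For 6 h, Klf9 had 30.9 and 28.6 CPM with BRM014, against 41.1 and 39.3 CPM with DMSO. Replicates of Klf9 lay close together, and its 6 h ratio of 0.740 was just inside the threshold. Nr1h4, the bile acid receptor FXR, had 15.6 and 13.7 CPM with BRM014 at 30 h, against 6.53 and 9.56 CPM with DMSO, and 6.82 and 8.53 CPM with BRM014 at 6 h, against 11.03 and 12.5 CPM with DMSO. Sox9, a regulator of mammary progenitors, was called lower at 6 h (-0.81 ± 0.18) and had no call at 30 h (0.42 ± 0.18). Hmga1, an AT-hook chromatin protein, was called at 30 h (0.82 ± 0.21) but not at 6 h (-0.52 ± 0.20). The zinc finger gene Zfp53 was called at both times (0.38 ± 0.12 at 30 h and -0.56 ± 0.13 at 6 h). Rsbn1 was called at 6 h (-0.53 ± 0.15) and not at 30 h (0.40 ± 0.16).

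Enzymes of metabolism were 4 members, all called higher at 30 h, as were 31 of the 50 members (16.8% of all genes). Bcat1, the cytosolic branched-chain aminotransferase, had 4.87 and 6.74 CPM with BRM014 at 30 h, against 2.32 and 2.72 CPM with DMSO. For 6 h, Bcat1 had 2.32 and 2.27 CPM with BRM014, against 3.85 and 4.36 CPM with DMSO. Chst15, a sulfotransferase of chondroitin sulfate, had 3.25 and 3.91 CPM with BRM014 at 30 h, against 1.05 and 0.921 CPM with DMSO, the second-largest ratio of the members (3.63). Its 6 h values were 1.08 and 1.46 CPM with BRM014, against 2.52 and 2.45 CPM with DMSO. The hexokinase gene Hk2 was dominated by 6 h (-0.97 ± 0.14, against 0.39 ± 0.14 at 30 h). The aldehyde dehydrogenase gene Aldh3b1 was dominated by 30 h (0.96 ± 0.19), with -0.55 ± 0.23 at 6 h, where its groups overlapped.

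MHC class I genes were 2 members, both of the non-classical kind, whose family presents peptides or inhibits natural killer cells. H2-T23 (Qa-1) had 10.9 and 12.6 CPM with BRM014 at 30 h, against 5.76 and 5.26 CPM with DMSO. At 6 h H2-T23 had 2.17 and 2.49 CPM with BRM014, against 3.85 and 3.41 CPM with DMSO. H2-Q2 had 4.93 and 4.64 CPM with BRM014 at 30 h, against 3.43 and 2.98 CPM with DMSO, and neither of its effects was called (0.54 ± 0.25 and -0.53 ± 0.30). All 4 values of each gene at 30 h were above all 4 at 6 h. Reads of H2 genes can be shared between near-identical copies, so the 2 values are uncertain.

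Non-coding RNAs were 4 members. Neat1, the scaffold of paraspeckles, had 441 and 635 CPM with BRM014 at 30 h, against 405 and 402 CPM with DMSO. At 6 h Neat1 had 432 and 313 CPM with BRM014, against 778 and 634 CPM with DMSO. It lies just inside the 30 h threshold (ratio 1.335), and its effects were 0.39 ± 0.18 at 30 h, not called, and -1.01 ± 0.18 at 6 h, called. AW112010 had 10.2 and 12.2 CPM with BRM014 at 30 h, against 4.43 and 9.12 CPM with DMSO. At 6 h it rested on 3 and 11 counts with BRM014, against 3 and 16 counts with DMSO, so its 6 h ratio carries little information. A930013F10Rik and D330041H03Rik stayed below 5 CPM in all libraries and were called at neither time. The last 4 members were Rnf39, Ankrd42, Ccdc15 and the gene with Entrez ID 100040596. Rnf39, a RING finger protein, had 29.9 and 28.5 CPM with BRM014 at 30 h, against 16.8 and 15.4 CPM with DMSO, and 24.6 and 16.4 CPM with BRM014 at 6 h, against 38.0 and 26.0 CPM with DMSO. Ankrd42 was called at 30 h (1.23 ± 0.33) and not at 6 h, and the other two were called at neither time.

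By the rule, the highest of the 4 group means could only be BRM014 at 30 h or DMSO at 6 h. The lowest could only be DMSO at 30 h or BRM014 at 6 h. BRM014 at 30 h was the highest group for 28 members and DMSO at 6 h for the other 22. The lowest group was DMSO at 30 h for 28 members and BRM014 at 6 h for 22. The rule favours a high DMSO value at 6 h and a low one at 30 h, and the reverse for BRM014. A fall with time in DMSO and a rise in BRM014 are thus partly built into the choice. The time changes below are a description.

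In DMSO, 35 members were called lower at 30 h than at 6 h (17.2% of all genes were called lower) and 5 were called higher (18.0% of all genes). In BRM014, 29 were called higher at 30 h than at 6 h (19.6% of all genes) and none was called lower (16.9% of all genes). The median change was -0.82 in DMSO and 0.60 in BRM014. For 19 members DMSO was called lower and BRM014 had no call, as for Siglecg (-3.69 ± 0.45 in DMSO, -0.38 ± 0.38 in BRM014), Lgr6 (-2.42 ± 0.33 and -0.21 ± 0.30) and Ccbe1 (-1.91 ± 0.11 and -0.02 ± 0.11). For 16 members DMSO was called lower and BRM014 higher, as for Flnc (-1.81 ± 0.17 and 0.74 ± 0.16), Nbeal2 (-1.14 ± 0.12 and 0.82 ± 0.12) and Chst15 (-1.43 ± 0.32 and 1.45 ± 0.29). All 5 cytoskeletal and caveolar members were in this set, but the rule favours it and the roles were set after the values were seen. The share of all genes in this set is not given here, so nothing is read from this.

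For 8 members BRM014 was called higher and DMSO had no call, as for Procr (1.15 ± 0.26 in BRM014, -0.66 ± 0.26 in DMSO) and H2-T23 (2.29 ± 0.21 and 0.51 ± 0.21). For 5 members both were called higher, namely AW112010 (5.04 ± 0.53 in BRM014, 3.78 ± 0.52 in DMSO), Ndrg4 (2.43 ± 0.30 and 0.87 ± 0.28), Aldh3b1 (2.41 ± 0.21 and 0.90 ± 0.21), H2-Q2 (1.87 ± 0.27 and 0.79 ± 0.27) and Zfp53 (1.60 ± 0.13 and 0.66 ± 0.13). Syt14 and the gene 100040596 had no call in either treatment.

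**Figure D4:**
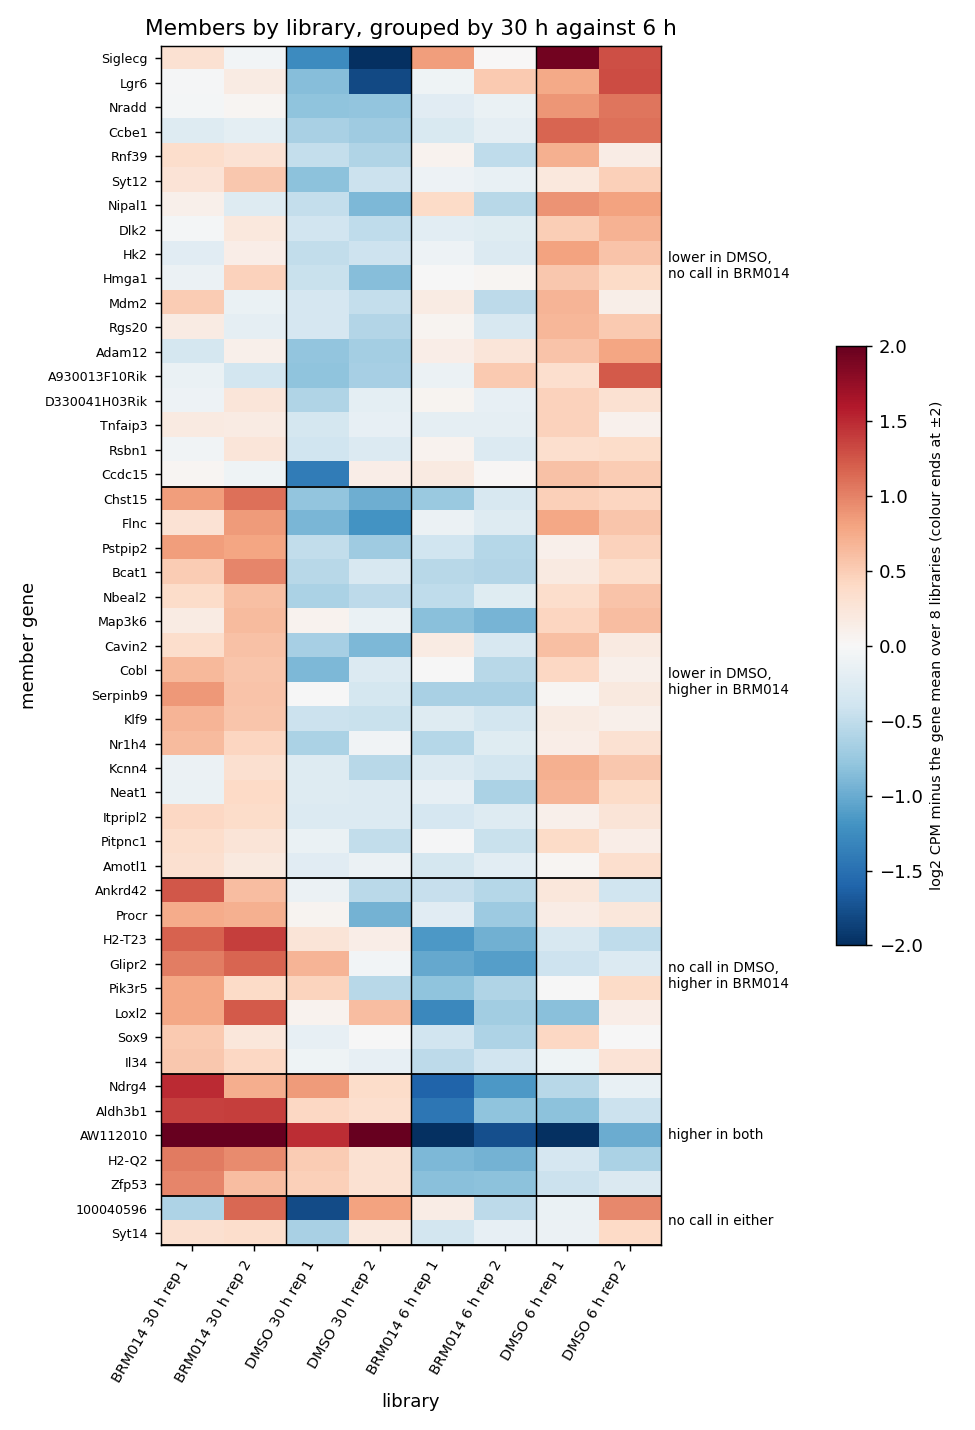
Rows are 49 of the 50 members and columns the 8 libraries, with colour giving log2 CPM minus the mean of the gene over the 8 libraries (red above, blue below, ends at 2). Rows are grouped by the calls of 30 h against 6 h in DMSO and in BRM014. DMSO at 6 h is the reddest group in the top set, and BRM014 at 30 h in the sets of 8 and 5 members.

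**Figure D5:**
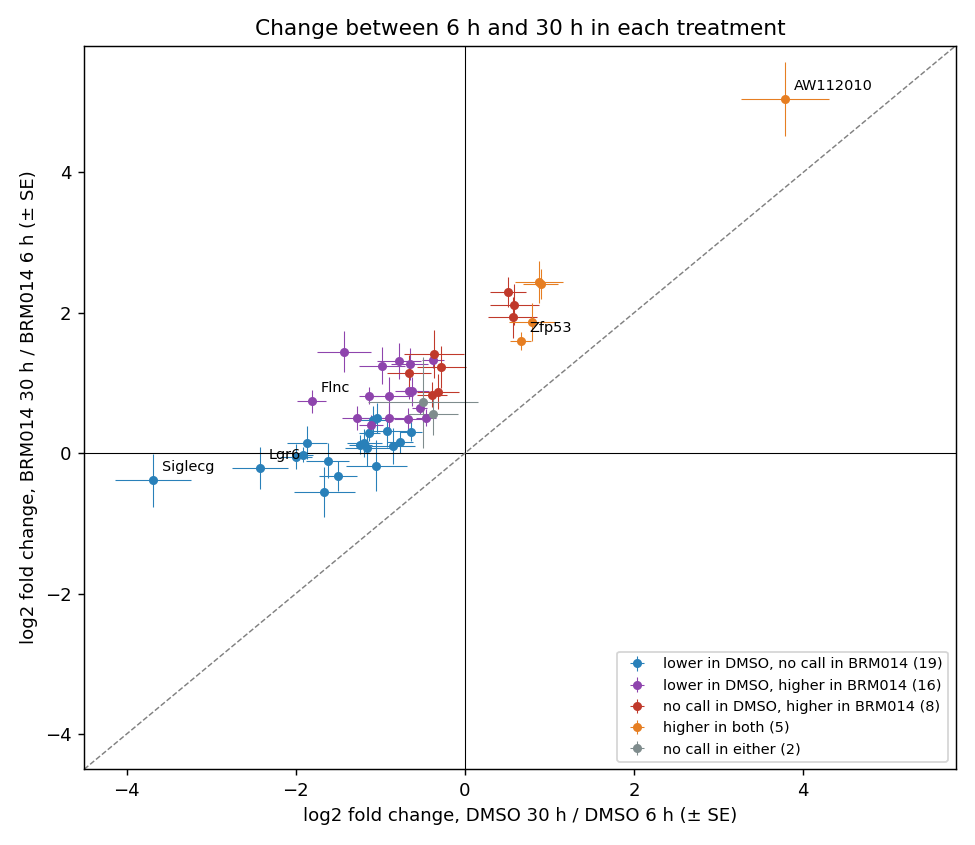
The log2 fold change of 30 h over 6 h in DMSO (x axis) and in BRM014 (y axis) for each member, with SE bars from the edgeR fit and colours for the 5 sets of calls. All members lie above the dashed line of equal change, as the rule requires, from Siglecg at the far left to AW112010 at the top right.

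Of 24 gene lists of pathways and families, 7 held 1 member each and the other 17 held none, and 6 of the 7 are described. Most members were thus in no list, and the MHC list did not include H2-Q2. Calls over each list at 30 h (19.1% of all genes were called lower) and at 6 h (9.35% were called higher) are given below with the member itself counted in its list. Among 20 tested NF-kB pathway genes, the list of Tnfaip3, 9 were higher and 1 was lower at 30 h, and 3 were higher and 7 were lower at 6 h. Its median was 0.47 at 30 h and -0.43 at 6 h. Among 14 tested MHC and antigen presentation genes, the list of H2-T23, 12 were higher and none was lower at 30 h, and 4 were higher and 2 were lower at 6 h (medians 0.92 and -0.04). Of 22 YAP/TEAD genes, the list of Amotl1, 12 were higher and 4 were lower at 30 h, and 5 were higher and 9 were lower at 6 h (medians 0.39 and 0.05).

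Among 25 tested p53 target genes, the list of Mdm2, 9 were higher and 3 were lower at 30 h, and 6 were higher and 7 were lower at 6 h (medians 0.32 and 0.16). In the list of Loxl2, 16 tested mesenchymal genes, 4 were higher and 7 were lower at 30 h, and 2 were higher and 8 were lower at 6 h (medians -0.43 and -0.84). In the list of Klf9, 20 tested FOXO target and autophagy genes, 4 were higher and 4 were lower at 30 h, and 2 were higher and 6 were lower at 6 h (medians -0.08 and -0.08). In the list of Loxl2 more genes were lower than higher at 30 h. The difference between the times was called higher for 5 NF-kB, 5 MHC, 10 YAP/TEAD, 4 p53, 2 mesenchymal and 2 FOXO genes. Among all genes 3.89% were called higher for it. It was called lower for 1 p53 target and 1 mesenchymal gene, and for none in the other lists described. The lists are described by these counts, with no test of a list.

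The values just inside and just outside the thresholds were close. Syt14, Klf9 and D330041H03Rik entered with 6 h ratios of 0.744, 0.740 and 0.739, while Tns3, Ano1 and Pcdh1 stayed out with 0.752, 0.752 and 0.753. Neat1, Zfp53 and Hk2 entered with 30 h ratios of 1.335, 1.337 and 1.337, while Adamtsl5, Mamld1 and Neurl3 stayed out with 1.328, 1.316 and 1.303. With only 2 libraries a group, membership turned on single libraries. When each library was left out in turn, the rule gave 45 to 61 genes, and 12 members were kept every time: Siglecg, Flnc, Pstpip2, Lgr6, Bcat1, Nradd, Nbeal2, Ccbe1, H2-T23, Serpinb9, Nr1h4 and Glipr2. With CPM rescaled by TMM factors the rule gave 62 genes, of which 43 were members; Rsbn1, Hk2, Amotl1, Ccdc15, Tnfaip3, Zfp53 and Neat1 were not among them. Of the calls, 16 of 31 at 30 h, 11 of 32 at 6 h and 26 of 39 for the difference held whichever library was left out. Flnc, Nbeal2, Serpinb9 and Itpripl2 were the members that kept calls at 30 h, at 6 h and for the difference. At 6 h the number of members called lower was 13 without BRM014 replicate 2, 15 without DMSO replicate 1 and 20 without BRM014 replicate 1.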

How the data were processed

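NMuMG RNA was purified on columns, and strand-marking libraries of total RNA were read from 1 end, per the labels' protocols. The authors deposited 1 table of raw counts for 8 libraries, keyed by Entrez ID and symbol. The submitters' processing notes name mm9, Subread, SAMtools 0.1.19 and featureCounts, without roles; annotation and strand setting were not given in the sources used here, so reads of overlapping genes may not be separable.

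Group means of CPM were computed from column totals. Counts were fitted with edgeR 4.0.16 in R 4.3.3 (filterByExpr, TMM, 4 group means, quasi-likelihood F test, 2-sided, Benjamini-Hochberg over 11835 genes). The SE is the size of the log2 fold change divided by the square root of F. DESeq2 1.42.0, other scalings, no filter, a replicate block and leaving out each library were alternatives. Scripts were tested on simulated data.

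The members and gene lists were chosen with earlier results of these data known. Named genes followed a rule (the 20 members with the largest difference between times and no overlap of libraries, the 5 with most CPM, list members and those beside a threshold); it gave 26 members, beside the threshold genes, and the other members were named after their values were seen, as were the roles they are grouped by. Promoter sequences are from RefSeq, GRCm38.p6. The values of 1 member and of the list that holds it are not reported here; it is included in the counts over members.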

Additional observations from a re-analysis of the deposited data

Results flagged for a closer look

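For 39 of the 50 members the effect of BRM014 at 30 h differed from that at 6 h in the edgeR test of the difference. The members were selected on opposite ratios at these times, so this count describes the selection. No group had enough libraries to look for an outlying library.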

How the results depend on the processing

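Stricter ratios (0.67 and 1.5) gave 17 genes and a minimum of 5 CPM gave 32, in place of 50. The numbers called for the 5 comparisons were otherwise within 1.5 times of the main ones with RLE factors, library totals, no filter and DESeq2. Leaving out 1 library gave 45 to 61 genes by the rule, 13 to 35 members lower at 6 h, 23 to 31 higher at 30 h, 27 to 39 for the difference, 25 to 34 lower with time in DMSO and 21 to 30 higher with time in BRM014. Where this left a group with 1 library, that library is assumed to vary like the others. The log2 fold changes that turned sign when 1 library was left out were those of AW112010 at 6 h (-1.63 to 1.06) and for the difference (-0.37 to 2.31), both without replicate 2 of DMSO at 6 h, of the gene 100040596 at 30 h (-0.76 to 2.36; negative when replicate 1 of DMSO or replicate 2 of BRM014 at 30 h was left out) and for the difference (-0.0074 to 3.08), and of Ccdc15 at 30 h (-0.19 to 1.34; negative without replicate 1 of DMSO at 30 h). The cause was not tested. Fitted with the replicate number as a block, 38 members were called lower at 6 h, 38 higher at 30 h, 43 for the difference, 36 lower with time in DMSO and 31 higher in BRM014. The share of all genes called with the block is not given here, so no gain for the members is read from these numbers. Same-numbered libraries of different groups deviated together over genes, with r = 0.122 to 0.201 for all pairs of groups but 1. That pair was BRM014 at 30 h with DMSO at 6 h (0.011), which are not compared directly here. Since not every pair was above 0.1, the numbers were not taken as pairs in the main fit. The main fit thus leaves any effect shared by same-numbered libraries in its spread, also for the groups that are compared. Depth limits the 26 members below 10 CPM most.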

Other observations

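The rule left out 3 genes by symbol that met its thresholds, and their values are given without a test. The integrin gene Itga2, a subunit of a collagen receptor, had 45.7 and 47.4 CPM with BRM014 at 30 h, against 22.9 and 26.5 CPM with DMSO, and 21.9 and 19.3 CPM with BRM014 at 6 h, against 55.3 and 52.7 CPM with DMSO. The chemokine gene Ccl20 had 32.0 and 24.5 CPM with BRM014 at 30 h, against 16.4 and 21.4 CPM with DMSO, and 0.723 and 1.84 CPM with BRM014 at 6 h, against 2.04 and 2.003 CPM with DMSO. The sodium-proton exchanger gene Slc9a2 had 2.13 and 2.77 CPM with BRM014 at 30 h, against 1.05 and 1.75 CPM with DMSO, and 1.91 and 2.31 CPM with BRM014 at 6 h, against 3.14 and 4.06 CPM with DMSO. Itga2 was well counted and its groups lay far apart at both times, as for Flnc and Nbeal2 among the members.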
